A study of Mus musculus with 9 samples.

Results

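Imprinted genes are expressed mainly from the copy inherited from 1 parent, and this account follows 50 of them in mouse embryonic stem cells. Members were genes of a fixed list of mouse imprinted genes whose deposited read counts summed to at least 90 over 9 RNA sequencing libraries, and 47 of the 50 qualified. All 47 passed the filter on low counts and were tested, among 14772 genes tested of 33924 in the table. Of these members 22 are known as maternally expressed and 25 as paternally expressed, and they lie in 20 loci. These classes do not hold in every tissue. Imprinting is known mainly from placenta for Ascl2, Cd81, Nap1l4 and Tssc4, and from neurons for Ube3a. It depends on tissue for Copg2, Ppp1r9a and Commd1, and for Inpp5f only a brain variant is imprinted. Airn summed to 27 counts and Dcn to 6, Kcnq1ot1 was not among the row names, and these 3 genes were not tested. Just inside the limit were Kcnq1 with 93 counts, and Asb4 and Nap1l5 with 102 each. In 42 members every group held at least 30 counts, while Magel2, Asb4, Rtl1, Kcnq1 and Nap1l5 fell short of that in at least 1 group.

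The cells were male mouse embryonic stem cells, pluripotent cells of the early embryo, grown on gelatin in medium with serum and the cytokine LIF and otherwise untreated. There were 3 libraries with a knockout of UTX, the X-linked histone demethylase encoded by Kdm6a, 3 libraries labelled MLL4 knockdown (called the labelled knockdown below), MLL4 being the enhancer histone methyltransferase encoded by Kmt2d, and 3 wild type libraries. The titles name JM8A for the wild type and, with a further number, for the labelled knockdown, and A6 for the UTX knockout. The labels explain neither A6 nor that number, so line or clone and perturbation cannot be told apart. Whether a group's 3 libraries stem from separate cultures is not stated, so the p-values reflect only the spread among these samples, which may be technical.

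In genomic imprinting, DNA methylation laid down in 1 parent's germ cells marks a control region, and the mark is kept through the divisions of the early embryo by a maintenance methyltransferase and by zinc finger proteins that recognise the methylated copy. A small group of genes is instead marked by a Polycomb histone modification that comes from the egg. Many imprinted genes act in growth of the embryo and placenta, and embryonic stem cells are known for variable imprinted expression between lines and with time in culture. Read counts per gene do not separate the parental copies, so every level below is the sum of both copies. In bulk RNA, fewer cells of a type and less RNA per cell cannot be told apart.

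Total counts lay between 18570746 and 23874816 per library. Kdm6a averaged 16.4 ± 3.33 CPM (read counts scaled to the library total) in the UTX knockout and 78.9 ± 18.9 CPM in wild type (SD, n = 3 each), with a fitted difference of -2.27 on the log2 scale (SE 0.20, edgeR adjusted p = 0.000155). Kmt2d, listed under the older symbol Mll2, had 71.0, 72.0 and 73.4 CPM in the labelled knockdown and 86.2, 43.5 and 119 CPM in wild type. Its log2 fold change was -0.20 (95% interval -0.79 to 0.39, adjusted p = 0.624), and it was -0.51 (adjusted p = 0.0353) without wild type replicate 2 and 0.16 without wild type replicate 3. Against the UTX knockout, which had 110, 96.9 and 130 CPM, the labelled knockdown lay lower without overlap, at -0.64 (SE 0.27, adjusted p = 0.0987, and 0.0376 with the replicate block). The targeted transcript thus did not pass the test as lower than wild type with all 9 libraries, and every direction given for these libraries depends on that label. Uty, the Y-linked relative of Kdm6a, was low in both sets, with 0.828 CPM in the UTX knockout, 0.987 CPM in the labelled knockdown and 14.1 CPM in wild type. The summed level of 10 pluripotency markers lay between 6489 and 7078 CPM, 6511 and 7178 CPM, and 5178 and 6217 CPM in the same order of groups. Moves in opposite directions cancel in this sum. By edgeR at an adjusted p under 0.05, 1 rose and 1 fell in the UTX knockout against wild type. In the labelled knockdown 4 rose and 2 fell against wild type, and 2 rose and 2 fell against the UTX knockout. Over all tested genes 15.5%, 26.6% and 28.9% changed in these comparisons. Klf4 averaged 242, 582 and 211 CPM and Dppa5a 1299, 469 and 988 CPM in the same order of groups. Both comparisons with wild type share the wild type libraries.

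Throughout, changed means a Benjamini-Hochberg adjusted p under 0.05 in edgeR's quasi-likelihood test over all tested genes with all 9 libraries, two-sided, and fold changes are log2 with the standard error of the fit. A permutation of 3 against 3 libraries cannot go below p = 0.1, so none was run.

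Of the 47 members, 11 changed in the UTX knockout against wild type, 9 lower and 2 higher, which is 23.4% of them against a background of 15.5% of all tested genes (6.55% higher and 8.92% lower). Their median log2 fold change was -0.21, against -0.01 over all tested genes. In the labelled knockdown against wild type 15 members changed, 9 lower and 6 higher, or 31.9% against a background of 26.6% (10.8% higher and 15.8% lower), with a median of -0.01 against -0.02. Between the labelled knockdown and the UTX knockout 18 changed, 9 in each direction, or 38.3% against a background of 28.9% (13% higher and 16.0% lower), with a median of 0.15 against -0.02. The 3 libraries of 1 group all lay above or all below those of the other for 11, 21 and 27 members in these 3 comparisons, against 31.5%, 42.9% and 52.6% of all tested genes. As shares of the members these counts were 23.4%, 44.7% and 57.4%.

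The count in the UTX knockout was 5 without UTX knockout replicate 2, where 5.53% of all tested genes changed, and 6 without replicate 3, where 7.28% did. Between the perturbed groups it was 9 without UTX knockout replicate 2, 11 without UTX knockout replicate 3, 9 without knockdown replicate 2 and 10 without knockdown replicate 3, and the shares of all tested genes were 17.0%, 18.8%, 18.1% and 18.5%. Some members, several of which also passed under other alternatives, missed the threshold with all libraries and passed when 1 library was left out. Without wild type replicate 1 these were Tssc4 in the UTX knockout, Cdkn1c, Impact, Nap1l5 and Rian in the labelled knockdown, and Dlk1, Impact and Rtl1 between the perturbed groups. Without wild type replicate 2 they were Asb4 and Tssc4 in the labelled knockdown and Ube3a between the perturbed groups. Without UTX knockout replicate 1 they were Mest and Nespas in the UTX knockout, Sgce in the labelled knockdown, and Sgce and Zim1 between the perturbed groups. Lane 2 held replicates 1 and 3 of each group, and lane 1 held replicate 2. Within lane 2 alone 1, 4 and 7 of the 47 members changed in the 3 comparisons, against 0.501%, 9.08% and 10.4% of all genes tested there. Every member changed with all libraries had the same sign in both lanes. The lanes are parts of the libraries that gave those calls, so equal signs are no independent check.

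In at least 1 of the 3 comparisons 25 members changed, and 22 changed in none. Over all tested genes 15.5%, 26.6% and 28.9% changed in the single comparisons, and the share changed in at least 1 was not computed. Against wild type, H19, Igf2, Snrpn, Peg10 and Phlda2 were lower in both perturbed groups and Grb10 was higher in both. Those are 6 of the 11 members changed in the UTX knockout and 6 of the 15 changed in the labelled knockdown, and no member changed in opposite directions. Because both contrasts use the same wild type libraries, these counts are not independent. The matching shares over all tested genes were not computed.

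**Figure D1:**
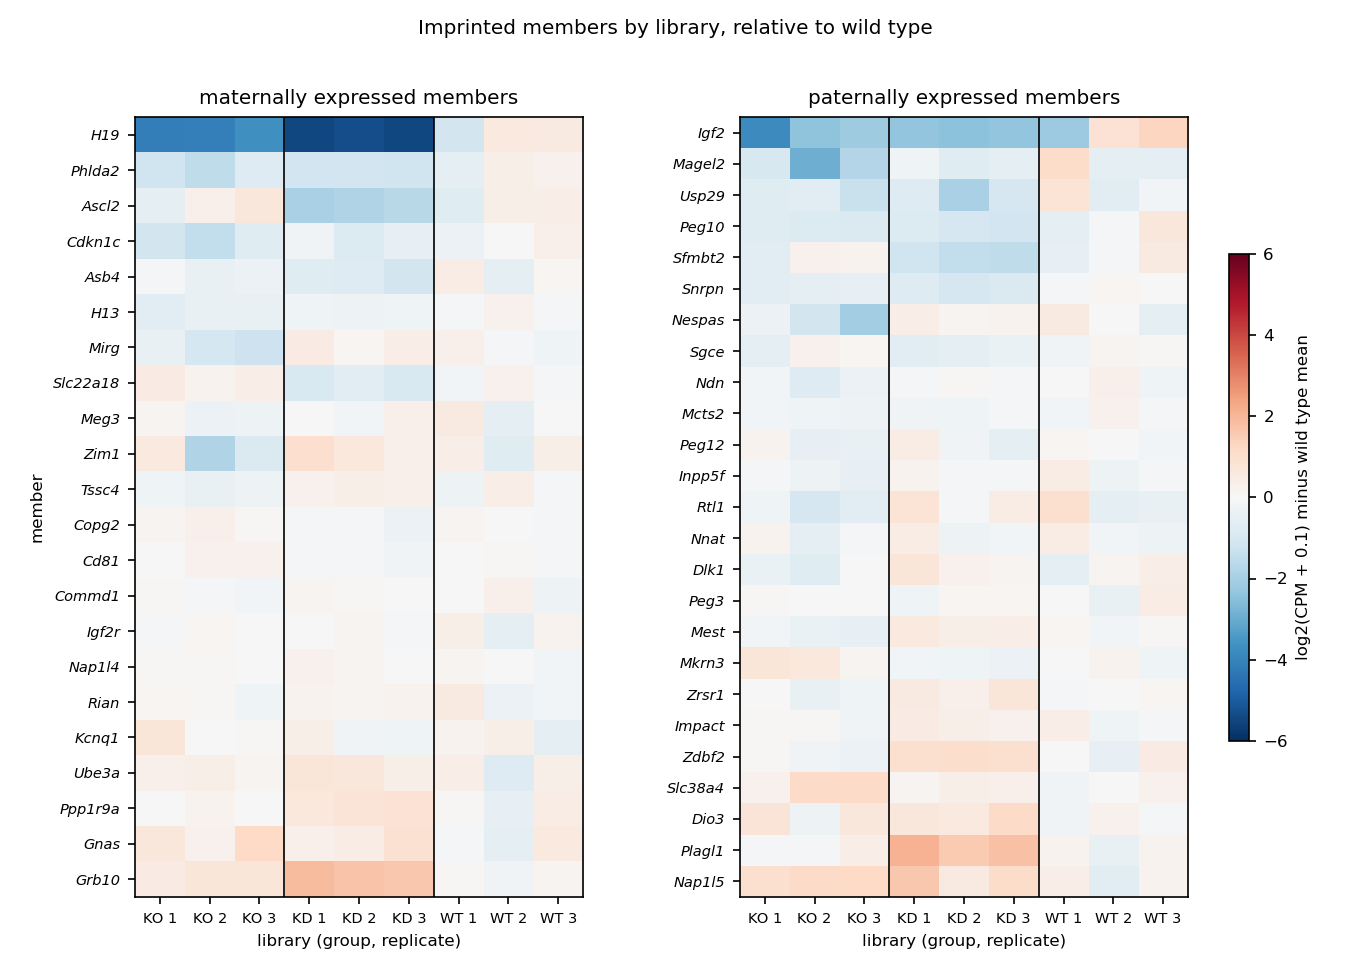
Each cell is the level of 1 imprinted member in 1 library as log2(CPM + 0.1) minus the mean of that quantity over the 3 wild type libraries, with columns in the order UTX knockout, labelled knockdown and wild type, and rows grouped by the parental copy known to be expressed. H19 and Igf2 are low in all 6 perturbed libraries and also low in wild type replicate 1, and Grb10 and Plagl1 are high in the labelled knockdown.

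The widest fold changes against wild type were those of H19, a maternally expressed noncoding RNA, and its neighbour Igf2, the paternally expressed fetal growth factor that competes with it for shared enhancers. H19 had 1.37, 1.43 and 1.90 CPM in the UTX knockout, 0.484, 0.543 and 0.487 CPM in the labelled knockdown, and 11.9, 39.2 and 37.1 CPM in wild type. All 6 perturbed libraries lay below the lowest wild type library, and the labelled knockdown lay below the UTX knockout. The log2 fold change was -4.23 (SE 0.41, adjusted p = 0.000286) in the UTX knockout and -5.85 (SE 0.47, adjusted p = 1.71e-05) in the labelled knockdown. Between these groups it was -1.62 (SE 0.53, adjusted p = 0.0387), from sums of 32 and 102 reads, and this call ended without any single library of either group (adjusted p between 0.0628 and 0.109).

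Igf2 had 6.23, 17.1 and 20.6 CPM in the UTX knockout, 17.2, 16.3 and 17.1 CPM in the labelled knockdown, and 19.9, 164 and 224 CPM in wild type. Wild type replicate 1 stood far below the other wild type libraries and below UTX knockout replicate 3, so the UTX knockout and wild type overlapped, while all libraries of the labelled knockdown lay below wild type. The fitted log2 difference was -3.21 (SE 0.68, adjusted p = 0.0107) in the UTX knockout and -3.01 (SE 0.67, adjusted p = 0.00776) in the labelled knockdown, and between them 0.20 (95% interval -1.22 to 1.63). Both calls against wild type held when any single library was left out. Within lane 2 the values were -3.19 (adjusted p = 0.162) and -2.83 (adjusted p = 0.12), and the replicate 2 libraries of lane 1 alone gave -3.26 and -3.33. Igf2r, the maternally expressed receptor that clears the growth factor, had log2 fold changes of -0.03 (95% interval -0.44 to 0.38) and -0.01 (95% interval -0.42 to 0.40) and did not pass the test.

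Spread between wild type libraries was wide for many members. The highest wild type library exceeded the lowest by over 2-fold in 18 of 47 members, against 7 in the UTX knockout and 3 in the labelled knockdown. The median ratio of highest to lowest was 1.39 in the UTX knockout, 1.21 in the labelled knockdown and 1.70 in wild type. These ratios were not computed over all tested genes, but the wide spread was not confined to members. Across tested genes the chi-square between 2 libraries, over its degrees of freedom, was 33.7 to 61.0 in wild type. It was 17.0 to 27.1 in the UTX knockout and 6.67 to 14.2 in the labelled knockdown. Wild type replicate 1 was more than 2-fold below both other wild type libraries for H19, Igf2 and Ascl2, and more than 2-fold above them for Magel2, Usp29 and Rtl1. With replicate 1 of every group left out, an alternative chosen after seeing the data, 11, 14 and 18 members changed in the 3 comparisons, with 20.9%, 24.2% and 27.4% of all tested genes.

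Levels of markers of other cell types also differed between the groups. The summed level of the trophectoderm markers, genes of the placental lineage, was 81.5, 102 and 117 CPM in the UTX knockout, 68.8, 83.0 and 89.1 CPM in the labelled knockdown, and 81.0, 525 and 457 CPM in wild type. Only wild type replicates 2 and 3 were high. In wild type replicates 1 to 3, Krt8 had 19.7, 211 and 170 CPM and Krt18 had 28.7, 231 and 184 CPM. These 2 markers thus made up most of both high sums. Eomes averaged 13.5, 14.4 and 13.7 CPM and Tead4 50.1, 39.4 and 25.8 CPM in the UTX knockout, labelled knockdown and wild type. Among 8 tested trophectoderm markers, the UTX knockout had 6 lower and 1 higher, and the labelled knockdown had 5 lower and 0 higher. The feeder or fibroblast markers summed to between 24.5 and 36.1 CPM, between 29.5 and 30.4 CPM and, in wild type, to 53.5, 183 and 130 CPM in replicates 1 to 3. Tagln alone gave 31.2, 158 and 103 CPM of these wild type sums. Among 6 tested, the UTX knockout had 3 lower and 1 higher, and the labelled knockdown had 4 lower and 1 higher. Neuroectoderm markers, genes of the early nervous system, summed to between 49.2 and 58.3 CPM in the UTX knockout, between 55.8 and 69.7 CPM in the labelled knockdown, and to 179, 133 and 136 CPM in wild type, where replicate 1 was the highest. Of 6 tested, 3 were lower in the UTX knockout and 2 in the labelled knockdown, and 0 were higher in either. Primitive endoderm markers, of the yolk sac lineage, summed to 75.2 to 149 CPM in the UTX knockout, 119 to 160 CPM in the labelled knockdown and 71.4 to 125 CPM in wild type. Of 7 tested, the UTX knockout had 2 higher and 1 lower, and the labelled knockdown had 3 higher and 0 lower. For mesendoderm markers 1 of 7 was lower in each, with sums between 14.5 and 21.9 CPM over all libraries. Of all tested genes, 6.55% were higher and 8.92% lower for the UTX knockout against wild type. For the labelled knockdown these backgrounds were 10.8% and 15.8%. Eomes is listed under both trophectoderm and mesendoderm. Pdgfra is listed under both feeder and primitive endoderm markers, so these counts are not independent. It had the highest log2 fold change of both lists, 1.13 (UTX knockout) and 2.59 (labelled knockdown). The part of these marker sets in the results for H19, Igf2, Phlda2, Peg10 and Ascl2 was not tested.

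**Figure D2:**
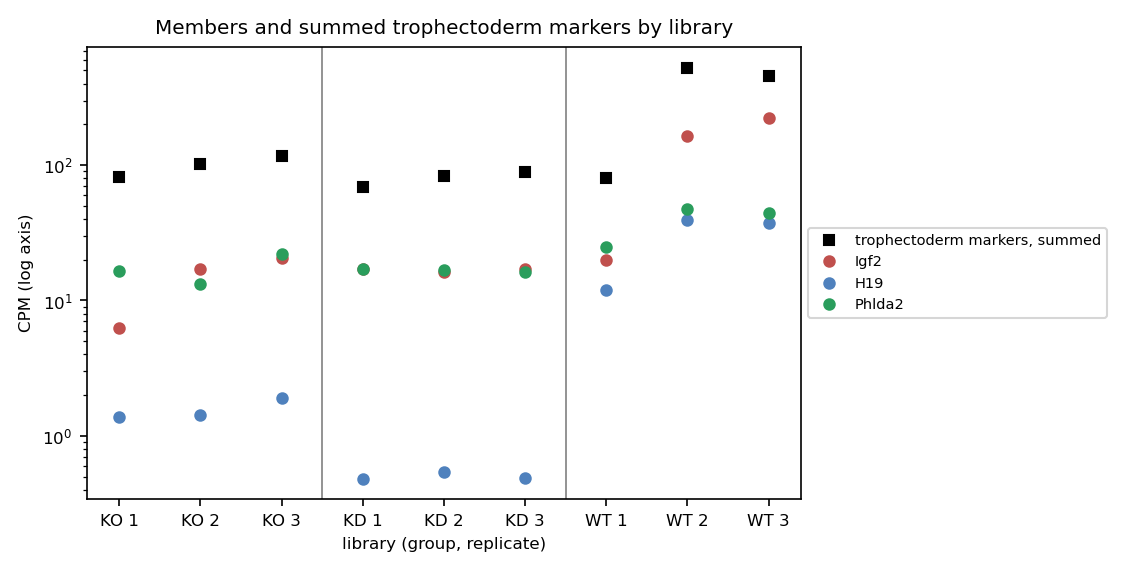
The level of H19, Igf2 and Phlda2 (CPM, log axis) is drawn per library beside the summed trophectoderm markers, with the UTX knockout, labelled knockdown and wild type libraries from left to right. Wild type replicates 2 and 3 carry the high values of the marker sum, 525 and 457 CPM, and of Igf2, 164 and 224 CPM, while wild type replicate 1 stands at 81.0 and 19.9 CPM. Most of the marker sum in wild type replicates 2 and 3 comes from Krt8 and Krt18.

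Grb10, a maternally expressed adaptor that restrains signalling of the insulin and insulin-like growth factor receptors, was the abundant member that rose in both groups. It had 313, 369 and 361 CPM in the UTX knockout, 829, 710 and 675 CPM in the labelled knockdown, and 228, 191 and 246 CPM in wild type. The 3 groups did not overlap. In the fit the log2 fold change was 0.65 (SE 0.13, adjusted p = 0.00826) in the UTX knockout, 1.74 (SE 0.13, adjusted p = 1.27e-05) in the labelled knockdown, and 1.09 (SE 0.13, adjusted p = 0.000253) between them.

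Plagl1, a paternally expressed zinc finger transcription factor, had 5.74, 5.58 and 7.94 CPM in the UTX knockout, 26.3, 18.0 and 20.7 CPM in the labelled knockdown, and 7.01, 4.43 and 7.03 CPM in wild type. The labelled knockdown stood above all 6 others, and the UTX knockout and wild type overlapped. The log2 fold change of the labelled knockdown was 1.82 (SE 0.23, adjusted p = 0.000285) against wild type and 1.75 (SE 0.23, adjusted p = 0.000387) against the UTX knockout. In the UTX knockout against wild type it was 0.06 (95% interval -0.44 to 0.57).

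The promoters below are of the 4 members with the widest fold changes in the labelled knockdown among those in the sequence table. They are shown for their CpG content, and whether they overlap the control region of their locus was not examined. Each runs 5′ to 3′ from 250 bases before to 50 bases after a transcription start in RefSeq's GRCm38.p6 table, in lower case with every CpG in capitals, and for Igf2 and Grb10 the start richest in CpG was taken. They lie at chr7:142658755-142659054 on the minus strand (Igf2), chr7:142969215-142969514 on the minus strand (Ascl2), chr10:13090582-13090881 on the plus strand (Plagl1) and chr11:12037371-12037670 on the minus strand (Grb10).
Igf2: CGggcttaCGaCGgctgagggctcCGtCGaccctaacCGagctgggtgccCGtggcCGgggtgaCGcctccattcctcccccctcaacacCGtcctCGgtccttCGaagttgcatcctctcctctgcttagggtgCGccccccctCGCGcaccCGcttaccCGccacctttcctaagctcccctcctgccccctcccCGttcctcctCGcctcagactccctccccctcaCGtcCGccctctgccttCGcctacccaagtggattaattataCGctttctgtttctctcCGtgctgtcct
Ascl2: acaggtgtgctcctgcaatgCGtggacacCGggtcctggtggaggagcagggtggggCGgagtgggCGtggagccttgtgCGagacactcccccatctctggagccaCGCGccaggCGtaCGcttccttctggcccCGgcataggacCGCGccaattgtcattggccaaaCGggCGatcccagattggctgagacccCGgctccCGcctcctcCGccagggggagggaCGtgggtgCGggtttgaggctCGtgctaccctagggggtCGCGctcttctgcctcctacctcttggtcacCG
Plagl1: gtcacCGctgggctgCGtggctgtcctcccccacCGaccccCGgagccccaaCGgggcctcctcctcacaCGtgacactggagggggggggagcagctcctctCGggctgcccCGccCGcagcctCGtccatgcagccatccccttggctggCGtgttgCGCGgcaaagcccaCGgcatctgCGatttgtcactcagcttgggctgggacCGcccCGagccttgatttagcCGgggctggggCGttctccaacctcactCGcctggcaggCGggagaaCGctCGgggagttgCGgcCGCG
Grb10: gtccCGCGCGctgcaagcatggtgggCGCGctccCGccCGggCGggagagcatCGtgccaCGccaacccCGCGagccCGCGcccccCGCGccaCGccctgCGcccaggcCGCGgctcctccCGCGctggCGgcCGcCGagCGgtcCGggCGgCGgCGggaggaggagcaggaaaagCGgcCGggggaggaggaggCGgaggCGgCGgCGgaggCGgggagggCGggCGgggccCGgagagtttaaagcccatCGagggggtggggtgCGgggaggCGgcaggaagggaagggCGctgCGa
The 300 bases held 24 CpG sites in Igf2, 23 in Ascl2, 26 in Plagl1 and 45 in Grb10. For Igf2 and Grb10 these counts follow from taking the richest start. Their other starts held 2, 14 and 7 CpG sites (Igf2) and 9 (Grb10). Of 47 members 38 matched the table, with 58 promoters and a median of 15 CpG sites, against 7 over all 32851 promoters of that length. The hexamer TGCCGC, known as the core of the site of the imprint protector ZFP57, was searched on both strands (as TGCCGC and GCGGCA). It stood in 14 of the 58 promoters, or 24.1%, from 13 members, against 11.6% of all. The hexamer itself holds a CpG, and these shares were not matched for the higher CpG count of the members' promoters. Some windows nearly coincide, as at Mest, where those beginning at 30737800 and 30737803 both hold it. Plagl1 and Grb10 each held 1 such match, and Igf2 and Ascl2 had none in the windows printed. These matches describe the sequence and say nothing of binding in these cells.

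**Figure D3:**
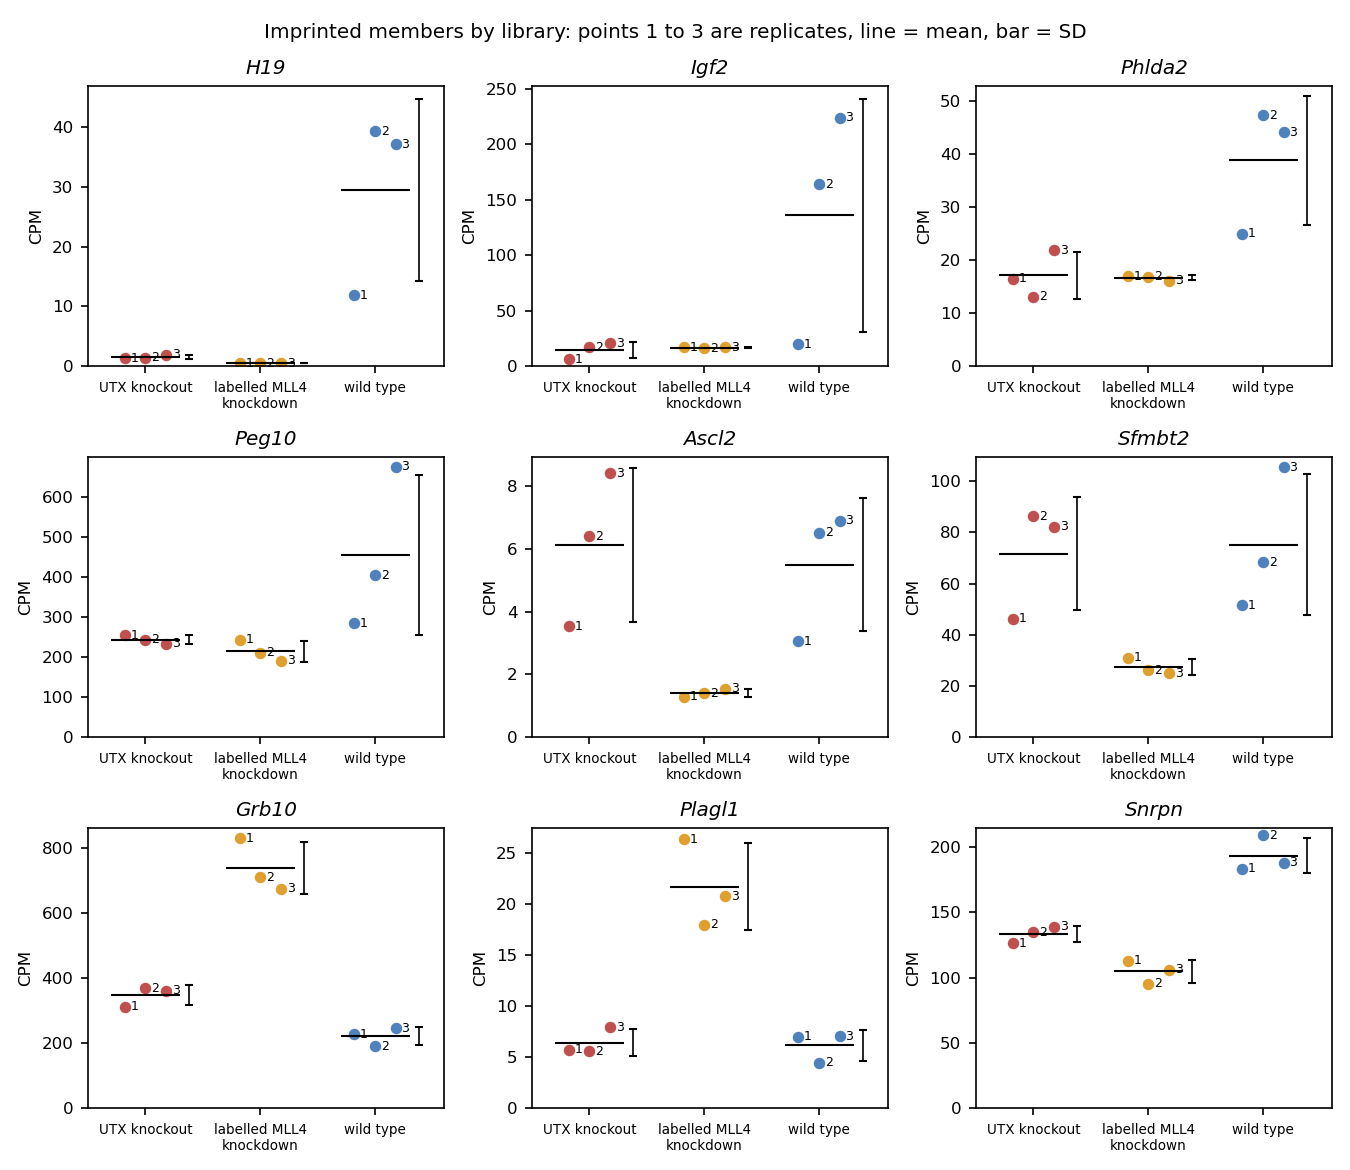
Each panel shows 1 changed member in CPM for the UTX knockout, labelled knockdown and wild type libraries, with points numbered by replicate, a line at the mean and a bar of 1 SD. The wild type points of H19 and Igf2 are widely spaced, with replicate 1 lowest, and Grb10 and Plagl1 are highest in the labelled knockdown.

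The Kcnq1 domain, a cluster of maternally expressed genes silenced on the paternal copy by a long noncoding RNA, gave 8 tested members. Among them Ascl2, Cd81, Nap1l4 and Tssc4 are known as imprinted mainly in placenta. Of all 8 members, 2 fell in the UTX knockout, 3 fell in the labelled knockdown, and none rose against wild type. Over all tested genes 8.92% and 15.8% fell. Phlda2, which restrains placental growth, had 16.5, 13.1 and 21.9 CPM in the UTX knockout, 17.0, 16.9 and 16.1 CPM in the labelled knockdown, and 25.0, 47.4 and 44.2 CPM in wild type. All wild type libraries lay above the 6 others, and wild type replicate 1 was the lowest of the 3. The log2 fold changes were -1.18 (SE 0.24, adjusted p = 0.0084) and -1.22 (SE 0.24, adjusted p = 0.00363).

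Cdkn1c, which encodes the cell cycle inhibitor p57, had 8.93, 6.79 and 11.6 CPM in the UTX knockout, 16.5, 10.8 and 13.5 CPM in the labelled knockdown, and 14.9, 19.7 and 23.9 CPM in wild type. The UTX knockout lay below wild type with no overlap. Its log2 fold change there was -1.10 (SE 0.24, adjusted p = 0.0115), a call that ended without UTX knockout replicate 2 (adjusted p = 0.0573). The labelled knockdown overlapped both groups, with log2 fold changes of -0.52 (adjusted p = 0.12) against wild type and 0.58 (adjusted p = 0.0912, and 0.039 with the replicate block) against the UTX knockout.

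Ascl2, a transcription factor needed in the trophoblast, had 3.53, 6.40 and 8.40 CPM in the UTX knockout, 1.29, 1.40 and 1.55 CPM in the labelled knockdown, and 3.06, 6.52 and 6.90 CPM in wild type. The labelled knockdown lay below all 6 others. By the test the log2 fold change was -1.95 (SE 0.38, adjusted p = 0.00344) against wild type and -2.11 (SE 0.38, adjusted p = 0.00219) against the UTX knockout, while the UTX knockout against wild type gave 0.15 (95% interval -0.59 to 0.89). Slc22a18, a membrane transporter gene, was also lowest in the labelled knockdown, with 6.38, 5.27 and 5.99 CPM in the UTX knockout, 2.37, 2.90 and 2.39 CPM in the labelled knockdown, and 4.0, 5.41 and 4.30 CPM in wild type. Its log2 fold change was -0.84 (SE 0.20, adjusted p = 0.0113) against wild type, a call that ended without knockdown replicate 3 (adjusted p = 0.0518), and -1.20 (SE 0.20, adjusted p = 0.00165) against the UTX knockout.

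Between the perturbed groups Cd81, a tetraspanin, also fell in the labelled knockdown (log2 fold change -0.33, SE 0.10, adjusted p = 0.0328) and Tssc4 rose (0.64, SE 0.17, adjusted p = 0.0169). The Cd81 call ended without UTX knockout replicate 2 or 3 or any knockdown library (adjusted p between 0.087 and 0.131), and the Tssc4 call without replicate 2 of either group (adjusted p = 0.0724 without the UTX knockout one and 0.06 without the knockdown one). Nap1l4, a histone chaperone, and Kcnq1, a potassium channel whose counts may include its antisense transcript, passed in no comparison. The part of the trophectoderm markers in the changes of this domain was not tested.

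In the Snrpn domain, which is the counterpart of the human region of Prader-Willi and Angelman syndromes, 6 members were tested. Snrpn, a paternally expressed splicing protein gene that shares its transcript with Snurf, had 126, 135 and 139 CPM in the UTX knockout, 113, 95.4 and 106 CPM in the labelled knockdown, and 183, 209 and 188 CPM in wild type. The 3 groups did not overlap and wild type was highest. The log2 fold change was -0.54 (SE 0.11, adjusted p = 0.0078) in the UTX knockout and -0.88 (SE 0.11, adjusted p = 0.000226) in the labelled knockdown. Between them it was -0.35 (SE 0.11, adjusted p = 0.0299), and that call ended without replicate 2 or 3 of either group (adjusted p between 0.0861 and 0.139).

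Other members of the domain did not share this pattern. Magel2, of the MAGE family, had 0.638, 0.0865 and 0.325 CPM in the UTX knockout, which are 22 reads in all, 1.08, 0.769 and 0.886 CPM in the labelled knockdown, and 2.96, 0.895 and 0.851 CPM in wild type. The UTX knockout lay below wild type without overlap, and wild type replicate 1 alone was high. The fall in knockout cells (log2 fold change -2.16, SE 0.63, adjusted p = 0.0412) ended without wild type replicate 1, UTX knockout replicate 2 or 3, or any knockdown library (adjusted p between 0.0556 and 0.146), and its value was -1.32 without wild type replicate 1 and -2.89 without UTX knockout replicate 1. Between the labelled knockdown and the UTX knockout Magel2 gave 1.39 (adjusted p = 0.135, and 0.0247 with the replicate block).

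Mkrn3, a RING finger protein gene of the same domain, had 8.88, 8.30 and 5.85 CPM in the UTX knockout, 4.73, 4.43 and 4.12 CPM in the labelled knockdown, and 5.45, 6.18 and 4.39 CPM in wild type. The UTX knockout lay above the labelled knockdown and overlapped wild type. The log2 fold change between the perturbed groups was -0.79 (SE 0.21, adjusted p = 0.0158), which ended without UTX knockout replicate 2 or without knockdown replicate 2 or 3 (adjusted p between 0.0555 and 0.0664). Against wild type the UTX knockout gave 0.52 (adjusted p = 0.108, and 0.0458 with the replicate block). Ndn, another MAGE family gene, Peg12 and the ubiquitin ligase gene Ube3a passed in no comparison.

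At the Peg10 locus the members moved in both directions. Peg10, a paternally expressed gene derived from a retrotransposon and needed for the placenta, had 254, 243 and 233 CPM in the UTX knockout, 243, 211 and 191 CPM in the labelled knockdown, and 284, 405 and 675 CPM in wild type. All 3 wild type libraries lay above the others and differed widely among themselves. The fitted log2 difference was -0.90 (SE 0.24, adjusted p = 0.0298) in the UTX knockout, where the call ended without any UTX knockout library or without wild type replicate 3 (adjusted p between 0.057 and 0.101). In the labelled knockdown it was -1.08 (SE 0.24, adjusted p = 0.00818).

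Ppp1r9a, which encodes the actin-binding protein neurabin, had 55.8, 62.6 and 56.3 CPM in the UTX knockout, 84.6, 95.0 and 101 CPM in the labelled knockdown, and 57.0, 38.3 and 75.2 CPM in wild type. The labelled knockdown lay above all 6 others. In the fit the log2 fold change was 0.72 (SE 0.20, adjusted p = 0.0202) against wild type, which ended without knockdown replicate 2 or 3 (adjusted p = 0.0638 and 0.072). Set against the UTX knockout the value was 0.68 (SE 0.20, adjusted p = 0.0239), which ended without any UTX knockout library or without knockdown replicate 2 or 3 (adjusted p between 0.0531 and 0.0826). Sgce, a sarcoglycan gene next to Peg10, gave -0.53 (adjusted p = 0.103, and 0.0336 with the replicate block) in the labelled knockdown against wild type and -0.50 (adjusted p = 0.113, and 0.048 with the replicate block) against the UTX knockout. Asb4 passed in no comparison.

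Mest, a paternally expressed gene of the alpha/beta hydrolase fold, had 54.8, 46.3 and 43.5 CPM in the UTX knockout, 93.0, 76.9 and 81.5 CPM in the labelled knockdown, and 65.6, 54.7 and 63.0 CPM in wild type. The labelled knockdown was highest without overlap. It exceeded wild type by 0.46 on the log2 scale (SE 0.13, adjusted p = 0.0227), a call that ended without wild type replicate 2 or knockdown replicate 1 or 3 (adjusted p between 0.0521 and 0.0906), and the UTX knockout by 0.80 (SE 0.13, adjusted p = 0.00131). The UTX knockout against wild type gave -0.34 (adjusted p = 0.0928, and 0.0349 with the replicate block). Its neighbour Copg2, a coatomer subunit gene, was lower in the labelled knockdown than in the UTX knockout (-0.35, SE 0.12, adjusted p = 0.047), which ended without any single library of either group (adjusted p between 0.0588 and 0.185).

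Of the Peg3 locus, the abundant zinc finger gene Peg3 passed in no comparison, with log2 fold changes of -0.01 (95% interval -0.43 to 0.42) and -0.04 (95% interval -0.46 to 0.39). Usp29, a ubiquitin peptidase gene that starts beside it, had 0.968, 0.362 and 0.797 CPM in the labelled knockdown and 3.12, 1.02 and 1.52 CPM in wild type. The groups did not overlap, though the highest and lowest libraries came close. The log2 fold change of -1.40 (SE 0.48, adjusted p = 0.0486) ended without any single library of the 9 other than wild type replicate 2 (adjusted p between 0.0579 and 0.176). The maternally expressed Zim1 gave 1.12 (adjusted p = 0.162, and 0.0374 with the replicate block) between the labelled knockdown and the UTX knockout.

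The Dlk1-Dio3 domain, whose maternally expressed noncoding RNAs are often watched in pluripotent cells, held 6 tested members. Meg3 had 108, 76.8 and 78.8 CPM in the UTX knockout, 95.5, 86.0 and 120 CPM in the labelled knockdown, and 141, 66.4 and 97.3 CPM in wild type. Rian, which hosts small nucleolar RNAs, had 273, 261 and 209 CPM, 286, 282 and 291 CPM, and 358, 193 and 223 CPM in the same order of groups. For both RNAs the perturbed groups overlapped with wild type and no comparison passed with all 9 libraries. Without wild type replicate 1, the highest wild type library, Rian in the labelled knockdown was 0.48 above wild type on the log2 scale (adjusted p = 0.0259).

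Mirg, the microRNA host of the domain, had 9.47, 6.23 and 5.48 CPM in the UTX knockout, 18.5, 14.2 and 17.0 CPM in the labelled knockdown, and 16.4, 12.3 and 11.1 CPM in wild type. The UTX knockout lay below both other groups. The resulting log2 fold change was -0.91 (SE 0.23, adjusted p = 0.021) against wild type, a call that ended without UTX knockout replicate 2 or 3 (adjusted p = 0.097 and 0.0924), and 1.23 (SE 0.23, adjusted p = 0.00255) for the labelled knockdown against the UTX knockout. Dlk1, a membrane protein related to Notch ligands, and Dio3, a deiodinase of thyroid hormone, passed in no comparison. The retrotransposon-derived Rtl1 gave 1.21 between the perturbed groups (adjusted p = 0.102, and 0.0215 with the replicate block).

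Members marked by the Polycomb modification of the egg in place of DNA methylation, as known from mouse embryos, were Sfmbt2 and Slc38a4. Sfmbt2, a Polycomb group protein gene, had 46.3, 86.4 and 82.2 CPM in the UTX knockout, 31.1, 26.2 and 25.0 CPM in the labelled knockdown, and 51.6, 68.4 and 105 CPM in wild type. The labelled knockdown lay below all 6 others. By the test the log2 fold change was -1.46 (SE 0.27, adjusted p = 0.00307) against wild type and -1.39 (SE 0.27, adjusted p = 0.00378) against the UTX knockout, and the UTX knockout against wild type gave -0.07 (95% interval -0.65 to 0.51).

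Slc38a4, an amino acid transporter, had 382, 701 and 696 CPM in the UTX knockout, 352, 408 and 396 CPM in the labelled knockdown, and 272, 310 and 380 CPM in wild type. UTX knockout replicates 2 and 3 stood above all other libraries, and replicate 1 was close to the highest wild type library. The rise in knockout cells (log2 fold change 0.89, SE 0.21, adjusted p = 0.0173) ended without UTX knockout replicate 2 or 3 (adjusted p = 0.08 and 0.0651). The difference between the labelled knockdown and the UTX knockout, whose libraries overlapped, was -0.62 (SE 0.21, adjusted p = 0.0451), and it ended without UTX knockout replicate 2 or 3 or any knockdown library (adjusted p between 0.0936 and 0.17).

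Zdbf2, a paternally expressed zinc finger gene, had 137, 114 and 105 CPM in the UTX knockout, 259, 277 and 260 CPM in the labelled knockdown, and 136, 93.0 and 186 CPM in wild type. The labelled knockdown lay above all 6 others. The log2 fold change was 0.94 (SE 0.21, adjusted p = 0.00675) against wild type and 1.16 (SE 0.21, adjusted p = 0.00217) against the UTX knockout. Zrsr1, a retrogene of a splicing factor within an intron of Commd1, also rose, by 0.54 (SE 0.16, adjusted p = 0.0316) against wild type, which ended without wild type replicate 1 or 2 or knockdown replicate 1 or 3 (adjusted p between 0.0572 and 0.136), and by 0.76 (SE 0.16, adjusted p = 0.00603) against the UTX knockout. Commd1 itself passed in no comparison.

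H13, a signal peptide peptidase gene with the paternally expressed retrogene Mcts2 in an intron, had 9.92, 11.5 and 11.7 CPM in the UTX knockout and 14.6, 18.9 and 14.6 CPM in wild type. The groups did not overlap. The fitted log2 difference was -0.54 (SE 0.15, adjusted p = 0.0331), and this call ended without any UTX knockout library, wild type replicate 2, or knockdown replicate 2 or 3 (adjusted p between 0.0573 and 0.094). Mcts2 passed in no comparison.

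The Gnas locus carries maternal, paternal and antisense transcripts, and its counts cannot be split among them. Nespas, the paternal antisense RNA, had 1.82, 1.04 and 0.464 CPM in the UTX knockout, 3.12, 2.58 and 2.70 CPM in the labelled knockdown, and 3.38, 2.39 and 1.52 CPM in wild type. The labelled knockdown exceeded the UTX knockout by 1.34 on the log2 scale (SE 0.42, adjusted p = 0.0347), which ended without UTX knockout replicate 2 or 3 or any knockdown library (adjusted p between 0.073 and 0.11). The UTX knockout against wild type gave -1.13 (adjusted p = 0.0945, and 0.02 with the replicate block), and Gnas, the stimulatory G protein gene, gave 0.73 (adjusted p = 0.192, and 0.0445 with the replicate block). Gnas held only 159 reads over the UTX knockout libraries and 96 over the wild type libraries. Which of the transcripts of the locus they stem from was not examined.

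Nap1l5, a retrogene of the nucleosome assembly protein family, had 0.589, 0.692 and 0.697 CPM in the UTX knockout, 0.968, 0.407 and 0.664 CPM in the labelled knockdown, and 0.364, 0.128 and 0.314 CPM in wild type. All 6 perturbed libraries were above wild type at these low counts. The log2 fold changes of 1.30 (adjusted p = 0.0809, and 0.0475 with the replicate block) and 1.33 (adjusted p = 0.0564, and 0.0377 with the replicate block) did not pass the test. Impact, which regulates a stress kinase of translation, gave 0.38 between the perturbed groups (adjusted p = 0.0983, and 0.0355 with the replicate block). Nnat and Inpp5f passed in no comparison.

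The 22 members that changed in no comparison had log2 fold changes between -0.89 (Rtl1) and 1.30 (Nap1l5) in the UTX knockout against wild type and between -1.09 (Asb4) and 1.33 (Nap1l5) in the labelled knockdown against wild type. Both ends of these ranges are members with few reads, and a p above the threshold does not show that levels were alike.

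**Figure D4:**
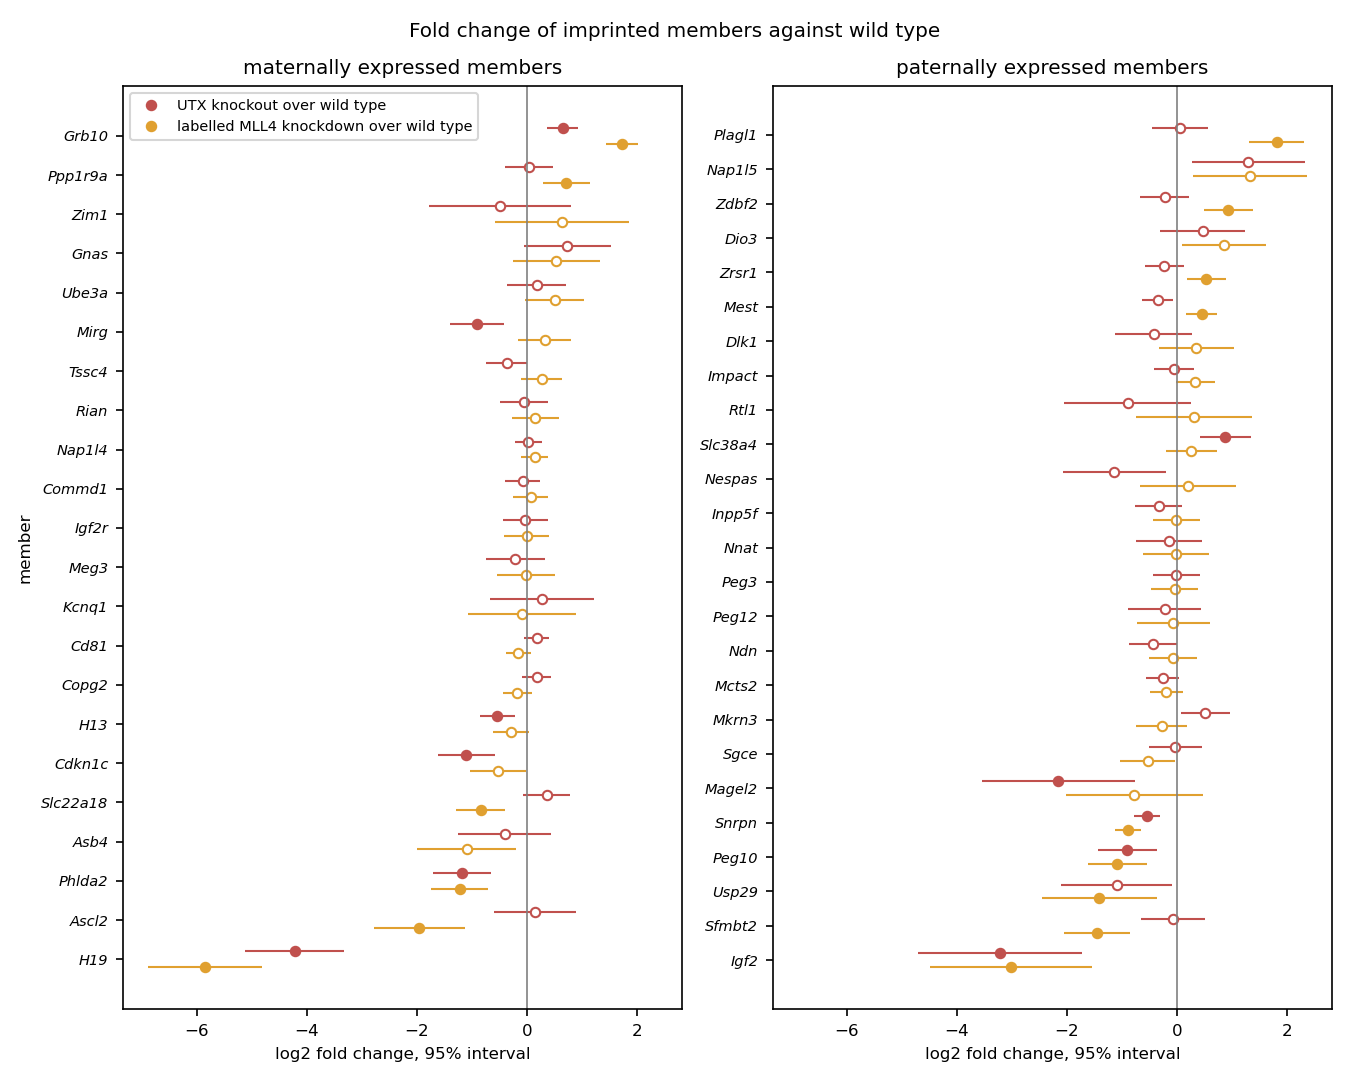
Log2 fold change against wild type of each tested member is drawn with its 95% interval, for the UTX knockout and the labelled knockdown, with filled points for members past the threshold and open points for the others. H19, at -4.23 and -5.85, and Igf2, at -3.21 and -3.01, lie far to the left of the others.

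Both parental classes held members that rose and members that fell. In the UTX knockout 1 maternally expressed member rose and 5 fell of 22, and 1 paternally expressed member rose and 4 fell of 25, with median log2 fold changes of -0.04 and -0.22. In the labelled knockdown 2 rose and 4 fell of the maternal members and 4 rose and 5 fell of the paternal members, with medians of -0.01 and -0.02. Between the perturbed groups 4 rose and 5 fell, and 5 rose and 4 fell, with medians of 0.13 and 0.20. Among all tested genes 6.55% rose and 8.92% fell in the UTX knockout, 10.8% rose and 15.8% fell in the labelled knockdown, and 13% rose and 16.0% fell between the perturbed groups. The difference between the parental classes was not tested.

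Per length of the annotated exons, Slc38a4 was the most abundant member in the UTX knockout at 139 CPM per kilobase and in the labelled knockdown at 90.4, and Snrpn in wild type at 89.6. Grb10 ranked second in the labelled knockdown, at 81.2 CPM per kilobase. Usp29 was the lowest member in every group, at 0.0484, 0.0392 and 0.104 CPM per kilobase.

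The factors that write, keep or remove the imprint were taken as a list of 29 genes, all tested. In the UTX knockout against wild type 1 rose and 4 fell (17.2%, median log2 fold change 0.01), in the labelled knockdown against wild type 4 rose and 5 fell (31.0%, median 0.06), and between them 3 rose and 5 fell (27.6%, median 0.04). These shares stand beside the backgrounds of 15.5%, 26.6% and 28.9% and medians of -0.01, -0.02 and -0.02 given for all tested genes. Within lane 2 alone 0, 4 and 4 changed, where 0.501%, 9.08% and 10.4% of all genes did. The count in the UTX knockout was 3 without UTX knockout replicate 2 or 3 or knockdown replicate 2 or 3, with 5.53%, 7.28%, 11.5% and 11.6% of all genes changed. Between the perturbed groups it was 5 without replicate 1 of either group and 4 without replicate 2 or 3 of either, with between 17.0% and 27.0% of all genes changed.

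Genes of the de novo DNA methylation machinery were among those that fell. Dnmt3l, the partner that stimulates the de novo methyltransferases, had 408, 493 and 453 CPM in the UTX knockout, 115, 77.7 and 70.9 CPM in the labelled knockdown, and 554, 770 and 562 CPM in wild type. The labelled knockdown was far below all others, at a fitted log2 difference of -2.84 (SE 0.20, adjusted p = 7.79e-06) against wild type and -2.36 (SE 0.20, adjusted p = 3.2e-05) against the UTX knockout. The de novo enzyme Dnmt3b had 152, 110 and 108 CPM in the UTX knockout, 104, 72.9 and 66.5 CPM in the labelled knockdown, and 523, 254 and 301 CPM in wild type, and wild type was highest without overlap. Its log2 fold change was -1.54 (SE 0.26, adjusted p = 0.00423) in the UTX knockout and -2.15 (SE 0.27, adjusted p = 0.00029) in the labelled knockdown, and -0.61 between them (adjusted p = 0.104, and 0.00315 with the replicate block).

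Dnmt3a, the other de novo enzyme, fell by 0.60 (SE 0.17, adjusted p = 0.0343) on the log2 scale in the UTX knockout, a call that ended without wild type replicate 1, UTX knockout replicate 2 or 3 or knockdown replicate 2 or 3 (adjusted p between 0.0519 and 0.137). In the labelled knockdown it fell by 1.10 (SE 0.17, adjusted p = 0.00096) against wild type. Dppa3, which protects the maternal genome from demethylation in the zygote, had 14.7, 10.3 and 10.5 CPM in the UTX knockout, 3.77, 3.62 and 3.32 CPM in the labelled knockdown, and 38.2, 39.7 and 25.0 CPM in wild type. The 3 groups did not overlap, the labelled knockdown being lowest and wild type highest, with log2 fold changes of -1.53 (SE 0.20, adjusted p = 0.00112) and -3.26 (SE 0.22, adjusted p = 7e-06) against wild type and -1.73 (SE 0.22, adjusted p = 0.000321) between the perturbed groups. Zfp42, a pluripotency gene linked to imprinted loci in the mouse, fell in both (-0.49, adjusted p = 0.0354, and -0.75, adjusted p = 0.00294). The gene lies on chromosome 8, where the median over 778 tested genes was itself -0.44 in the UTX knockout and -0.42 in the labelled knockdown, while the medians of the 10 chromosomes that hold members lay between -0.04 and 0.06 in both. With the median of its chromosome subtracted, Zfp42 was at -0.049 and -0.33. The first of the Zfp42 calls ended without wild type replicate 2, UTX knockout replicate 2 or 3 or knockdown replicate 2 or 3 (adjusted p between 0.0505 and 0.144).

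Of the genes that keep the mark, Dnmt1, Uhrf1, Zfp57, Zfp445, Trim28 and Setdb1, none passed the test as lower than wild type. Zfp57, the zinc finger protein that binds methylated imprints, had 514, 564 and 492 CPM in the UTX knockout, 555, 637 and 713 CPM in the labelled knockdown, and 218, 407 and 404 CPM in wild type. All 6 perturbed libraries were above wild type, with log2 fold changes of 0.61 (adjusted p = 0.065, and 0.015 with the replicate block) and 0.89 (SE 0.21, adjusted p = 0.00919). Uhrf1, which brings the maintenance enzyme to replicated DNA, rose by 0.47 (SE 0.09, adjusted p = 0.00768) in the UTX knockout, and the labelled knockdown against the UTX knockout gave -0.45 (SE 0.09, adjusted p = 0.00494). The corepressor partners of Zfp57 were higher in the labelled knockdown than in the UTX knockout, Trim28 by 0.37 (SE 0.12, adjusted p = 0.0427) and Setdb1 by 0.42 (SE 0.10, adjusted p = 0.00979). The Trim28 call ended without any single library of either group (adjusted p between 0.0718 and 0.153).

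Against wild type Setdb1 rose by 0.31 (adjusted p = 0.0374) in the labelled knockdown, which ended without wild type replicate 2, UTX knockout replicate 2 or any knockdown library (adjusted p between 0.0535 and 0.113). Tet3, an oxidase of methylated cytosine, rose by 0.91 (SE 0.21, adjusted p = 0.00973), and Arid4b by 0.53 (adjusted p = 0.0293), with the Arid4b call ending without any knockdown library (adjusted p between 0.0664 and 0.0918). With the replicate block Tet2 in the UTX knockout (0.70, adjusted p = 0.0662, and 0.0191 with the block) and Zfp445 and Tet1 in the labelled knockdown (0.78 and 0.65, adjusted p = 0.0654 and 0.0584, and 0.0165 and 0.0262 with the block) passed too. The relation between these factors and the imprinted members was not tested.

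**Figure D5:**
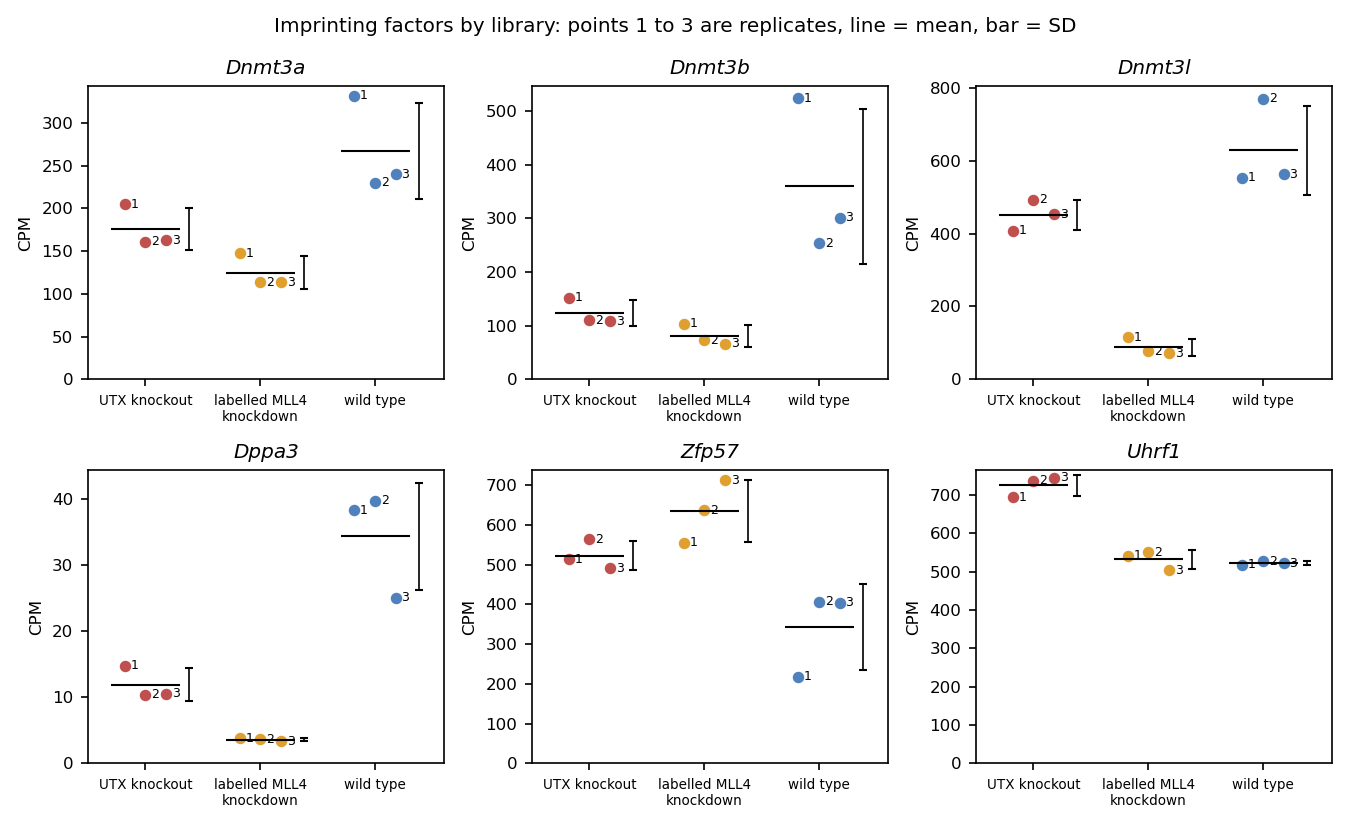
Each panel shows 1 imprinting factor in CPM for the UTX knockout, labelled knockdown and wild type libraries, with points numbered by replicate, a line at the mean and a bar of 1 SD. Dnmt3l and Dppa3 are lowest in the labelled knockdown, at 70.9 to 115 CPM and 3.32 to 3.77 CPM, while Zfp57 is lowest in wild type.

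A second list of 49 genes reported as imprinted in particular tissues had 30 tested. In the UTX knockout against wild type 5 rose and 1 fell (20%), in the labelled knockdown 6 rose and 2 fell (26.7%), and between the perturbed groups 2 rose and 3 fell (16.7%), with medians of 0.09, 0.16 and 0.12. All tested genes had backgrounds of 15.5%, 26.6% and 28.9% in these comparisons. With the replicate block these counts were 11, 11 and 11, where 23.3%, 34.1% and 36.7% of all tested genes changed. In lane 2 alone they were 0, 3 and 2. The first count was 12 without wild type replicate 1, where 19% of all genes changed, and 3 without wild type replicate 3, UTX knockout replicate 2 or 3 or knockdown replicate 2 or 3, where between 5.53% and 12.1% did. The last was 10 and 9 without wild type replicates 1 and 2, where 33.2% and 35.3% of all genes changed, and 2 without UTX knockout replicate 2 or 3 or any knockdown library, where between 17.0% and 18.8% did.

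Cobl, an actin nucleator gene next to Grb10, rose by 1.11 (SE 0.20, adjusted p = 0.00569) in the UTX knockout and 1.01 (SE 0.20, adjusted p = 0.00447) in the labelled knockdown. Ddc, the aromatic amino acid decarboxylase on the other side of Grb10, rose by 0.72 (SE 0.21, adjusted p = 0.0366) and 0.98 (SE 0.21, adjusted p = 0.00547), and its call in the UTX knockout ended without wild type replicate 3, UTX knockout replicate 2 or 3 or knockdown replicate 2 or 3 (adjusted p between 0.0551 and 0.159). Casd1, a sialic acid acetyltransferase gene beside Sgce, had 12.0, 10.5 and 9.75 CPM in the UTX knockout, 23.0, 22.4 and 22.1 CPM in the labelled knockdown, and 14.4, 14.4 and 15.9 CPM in wild type. It was lowest in the UTX knockout and highest in the labelled knockdown, with log2 fold changes of -0.47 (adjusted p = 0.0317) and 0.59 (SE 0.13, adjusted p = 0.006), and the first call ended without wild type replicate 3, UTX knockout replicate 2 or 3 or knockdown replicate 2 or 3 (adjusted p between 0.0586 and 0.14). Gab1, a signalling adaptor also marked by the egg's Polycomb modification in mouse, fell by 0.84 (SE 0.14, adjusted p = 0.00136) in the labelled knockdown and gave -0.44 (adjusted p = 0.0503, and 0.0249 with the replicate block) in the UTX knockout. Gab1 lies on chromosome 8 as well, and with that chromosome's median subtracted its value in the labelled knockdown was -0.42, while the UTX knockout value equals the chromosome median of -0.44 to 2 decimals.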

How the data were processed

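The authors deposited raw read counts per gene symbol in 1 table with a column per library, and each column matched a library by its title. Per the submitters' processing notes the tools were STAR 2.4 and HTSeq 0.6.1, and builds hg19 and mm9 are listed without roles. The sources used here state neither the annotation, the strand setting nor the treatment of overlapping genes, so reads of a gene and an antisense or overlapping partner (Airn, Kcnq1, Nespas, Rtl1, Zrsr1, Mcts2, Nap1l5) cannot be told apart.

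The members and lists were chosen with earlier results of these data known. Counts were fitted in edgeR 4.0.16 (R 4.3.3) with TMM factors, filterByExpr by group and the quasi-likelihood test, with group as the sole term over the 9 libraries. P-values were adjusted by Benjamini-Hochberg over 14772 genes with a threshold of 0.05. CPM was computed here from counts and TMM factors. Named genes were the members that changed, those past the threshold with the replicate block, and changed genes of the lists in part. The fit was tested on simulated data. Exon lengths came from GENCODE annotation, and promoters from RefSeq's GRCm38.p6 table, since no genome of the named builds was used.

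Alternatives were RLE factors, DESeq2 1.42.0, 2 other filters (none, and at least 30 counts in every library of a group), the replicate block, fits of 2 groups only, lane 2 only, removal of the transcript length trend and leaving out each library. Subtracting each chromosome's median and leaving out replicate 1 of every group were added after seeing the data. Same-numbered libraries deviated together, with correlations across genes between 0.168 and 0.467 against -0.412 to 0.226 for unlike numbers. Only the replicate block takes the numbers as pairs. The main test, with group as its sole term, leaves this pairing out. Libraries within a group differed by more than sampling noise (chi-square over its degrees of freedom, 6.67 to 61.0, highest in wild type). Totals of 18570746 to 23874816 counts leave members of under 1 CPM with few reads.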

Additional observations from a re-analysis of the deposited data

How the results depend on the processing

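Of the 44 changed-member results (11, 15 and 18 in the 3 comparisons), 0 reversed under any alternative run. All 44 calls were kept under DESeq2, the replicate block and removal of the length trend, 42 under RLE factors, 40 without a filter, 42 of 42 under the stricter filter, 39 in fits of 2 groups only, 36 with replicates 2 and 3 only and 12 in lane 2 alone, which has 2 libraries per group. With the replicate block 16, 17 and 24 members changed against 11, 15 and 18 (all tested genes 23.3%, 34.1% and 36.7%), and for the imprinting factors 7, 11 and 12 against 5, 9 and 8. Calls that the block changed stand beside their genes, for members all of them. Counts that moved by over 1.5 times were as follows, and ranges without single libraries stand beside them even where they did not move that far. For members, the UTX knockout against wild type gave 7 in the fit of 2 groups, 1 in lane 2, and 5 to 11 when single libraries were left out. Against wild type the labelled knockdown gave 4 in lane 2 and 10 to 17 without single libraries, and against the UTX knockout it gave 7 and 9 to 21. Imprinting factors in the UTX knockout numbered 3 in the fit of 2 groups, 0 in lane 2 by edgeR and 3 to 6 without single libraries. In the labelled knockdown they numbered 4 in lane 2 and 7 to 11 against wild type, and against the UTX knockout 14 in the fit of 2 groups, 4 in lane 2, 5 with replicates 2 and 3 only and 4 to 12 without single libraries. The second imprinted list in the UTX knockout gave 11 with the replicate block, 3 in the fit of 2 groups, 0 in lane 2, 12 with replicates 2 and 3 only and 3 to 12 without single libraries. In the labelled knockdown it gave 3 in lane 2 and 6 to 10 against wild type, and 11 with the block, 12 in the fit of 2 groups, 2 in lane 2 and 2 to 10 against the UTX knockout. In the fits of 2 groups 8.54%, 23.0% and 41.2% of all tested genes changed in the 3 comparisons. Rian in the labelled knockdown, 0.15 against wild type, changed sign to -0.0071 in lane 2, -0.060 with the length trend removed and -0.016 without wild type replicate 2, with a range of -0.016 to 0.48 without single libraries. Mll2 (Kmt2d), -0.20, changed sign to 0.16 without wild type replicate 3, with a range of -0.51 to 0.16. The reversed values did not pass the test, whereas Rian at 0.48 (without wild type replicate 1) and Mll2 at -0.51 (without wild type replicate 2) did, and the cause was not tested. With the chromosome median subtracted, Zfp42 and Gab1 were the named genes changed against wild type whose value moved by more than its standard error. Members under 1 CPM, such as Magel2, Usp29 and Nap1l5, rest on few reads. Loss of calls was not confined to them: without single libraries the calls of Copg2 (labelled knockdown against UTX knockout) and H13 (UTX knockout) were each lost 6 times of 9, as was that of Magel2 (UTX knockout).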
